A study of Bos taurus with 24 samples.

Results

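Matrix-rich and matrix-poor follicles were the 5 follicles at each end of a ranking of 16 bovine ovarian follicles by the level of 6 extracellular matrix genes, COL1A2, COL6A1, COL6A3, DCN, FBLN1 and POSTN. The 10 follicles at the ends were compared across the 9025 other genes, and 6 follicles lay between them. The matrix-rich follicles were C10, C26, 46, 27 and 26, and the matrix-poor follicles were C12, 861, C13, J980 and H893. The follicles were chosen by the measured levels of these 6 genes and not by the labels, which give no treatment, stage or breed, so both groups share everything the labels state. Every follicle was the largest of its heifer, 8 to 12 mm in diameter, and gave 5 µg of total RNA to each of 3 arrays. The 24 arrays each held 2 follicles, 1 in Cy5 and 1 in Cy3, and the deposited values are log ratios of both dyes. A follicle's level is its log2 difference from the mean of the 16 follicles for 1 gene, so levels can be compared between follicles but not between genes.

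The wall of an antral follicle has a theca of stromal, vascular and steroid-producing cells outside a basement membrane, and granulosa cells inside it. Fibrillar collagens, of which COL1A2 encodes a chain, give the theca and stroma their strength, and type VI collagen, from COL6A1, COL6A2 and COL6A3, forms fine networks around the cells. The proteoglycan decorin (DCN) binds collagen fibrils, fibulin 1 (FBLN1) binds fibronectin and laminin, and periostin (POSTN) links collagen to other matrix proteins. In RNA of a whole follicle, more cells that make matrix and more matrix RNA per cell cannot be told apart. Log ratios give no absolute level, so the presence of theca, granulosa or oocyte RNA in a follicle could not be checked, only its variation between follicles.

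The mean level of the 6 genes ran from 0.61 in C10 through 0.60 in C26, 0.33 in 46, 0.32 in 27 and 0.30 in 26, the last follicle inside the matrix-rich group. At the other end it was -0.33 in C12, the last inside the matrix-poor group, -0.38 in 861, -0.45 in C13, -0.45 in J980 and -0.58 in H893. The nearest follicles outside were C35 at 0.23 and C22 at -0.28, and the array SE of a mean was between 0.078 and 0.088. Both edges of the groups therefore lie within 1 SE of the next follicle, and C10 and C26 stand apart from the other 3 matrix-rich follicles. The 6 genes chose the groups, so their values are given as a description with no test.

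**Figure D1:**
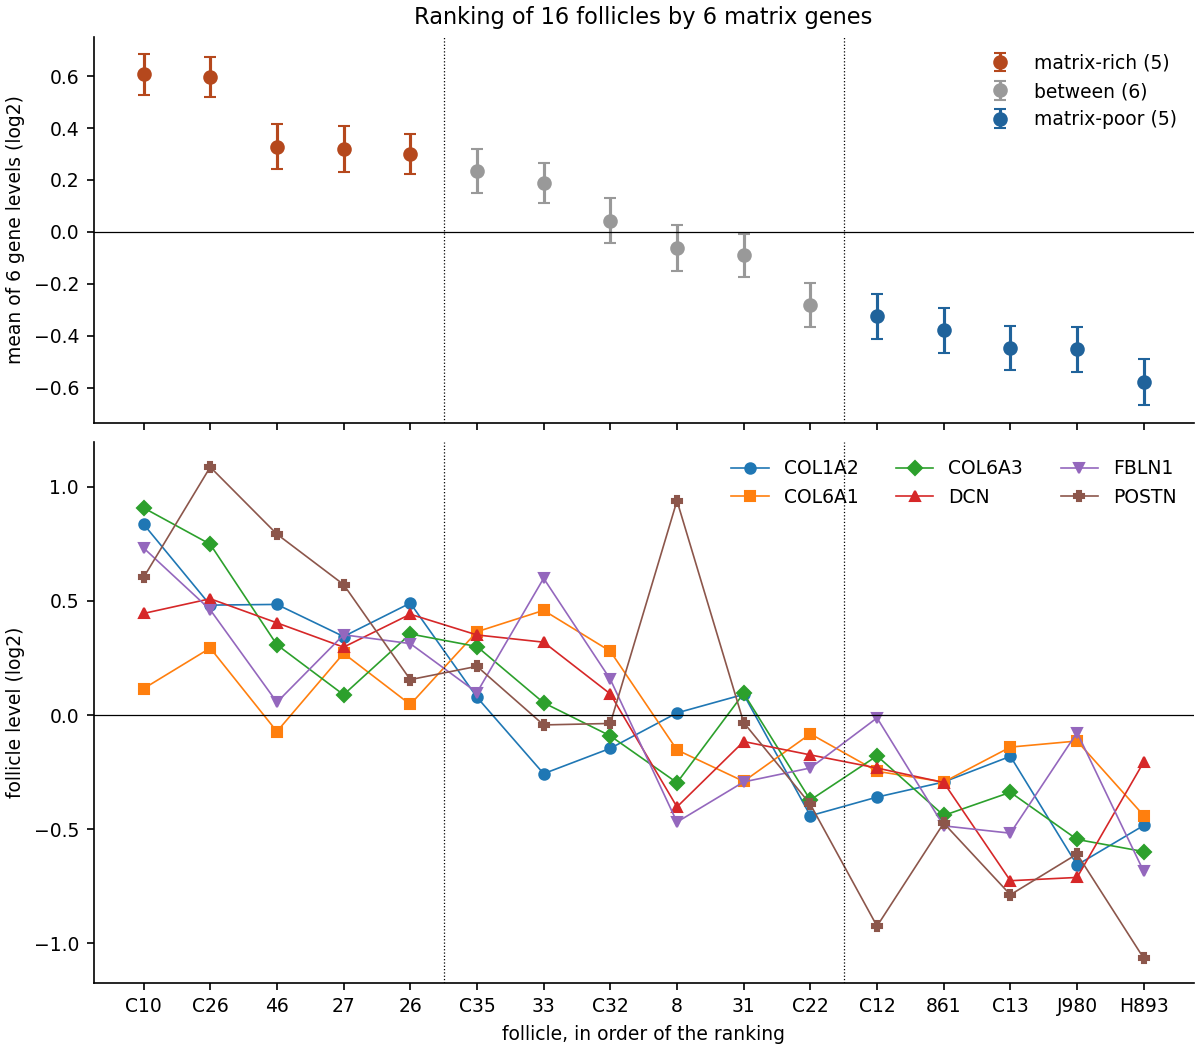
The upper panel plots the mean level of the 6 ranking genes (log2) for each of 16 follicles, with bars for the SE from array error, and the lower panel plots each gene's level. Dotted lines mark the edges of the groups; the mean falls from 0.61 in C10 to -0.58 in H893, while POSTN in follicle 8, between the groups, reaches 0.94.

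POSTN differed most between the ends. Its levels were 0.60, 1.09, 0.79, 0.57 and 0.16 in C10, C26, 46, 27 and 26, against -0.92, -0.47, -0.79, -0.61 and -1.06 in C12, 861, C13, J980 and H893. The group means were 0.64 ± 0.34 and -0.77 ± 0.24 (SD, n = 5 each). POSTN did not follow the other ranking genes everywhere: follicle 8, ranked between the groups, had 0.94, the second highest level of the 16.

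COL1A2 lay between 0.34 and 0.84 in the matrix-rich follicles and between -0.66 and -0.18 in the matrix-poor ones, with C10 highest and J980 lowest. COL6A3 had 0.91 in C10 and 0.75 in C26 but 0.089 in 27, with means of 0.48 ± 0.34 and -0.42 ± 0.17. DCN was the most even within the matrix-rich group, 0.42 ± 0.078, and took 2 levels in the matrix-poor group, -0.73 and -0.71 in C13 and J980 and -0.30 to -0.21 in the other 3. FBLN1 was weak as a separator, since 46 had 0.056 and C12 had -0.012. COL6A1 was weaker still, with -0.072 in the matrix-rich follicle 46 against -0.11 in the matrix-poor J980. Its 3 array features had a median correlation of -0.04 over the arrays, the measure used for features throughout. The 3 features of POSTN, in contrast, had a median correlation of 0.95.

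Before other genes are described, 3 facts about the arrays bear on all of them. First, the loop of arrays consists of 2 arms of 8 follicles joined by only 2 arrays, and the groups are spread unevenly over them: the first arm holds 2 matrix-rich (C10, 46) and 4 matrix-poor follicles (C12, 861, C13, H893), and the second holds 3 matrix-rich follicles (C26, 27, 26) and only J980. Medians within the first and the second arm are therefore given for each list, and differences within them for the genes described most closely. Every value within the second arm rests on J980 as its only matrix-poor follicle. Second, J980 stands apart: its levels had an SD of 0.33 over genes against 0.19 to 0.24 in the other 9 follicles of the groups, and its arrays had the widest ratios. Last, the ranking genes and all other genes were read on the same arrays, so a small p shows association with the ranking in these 16 animals. If the deposited ratio ran Cy3 over Cy5, every level would change sign, the groups would swap names, and each difference would keep its sign.

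Across the 9025 genes, limma's moderated test with Benjamini-Hochberg adjustment called 0 at an adjusted p under 0.05 (0% called). An unadjusted p under 0.05 was reached by 933 genes (10.3%), with 561 higher in the matrix-rich follicles (6.22%) and 372 lower (4.12%). For 135 genes all 5 matrix-rich follicles lay above all 5 matrix-poor ones (1.5%), and for 66 they lay below (0.731%). With the arm of the loop as a block, 0 genes were called (0%), with an unadjusted p under 0.05 for 540 higher (5.98%) and 319 lower (3.53%). Without J980 and its arrays, when C22 joins the matrix-poor group, 0 were called (0%), with 485 higher (5.36%) and 531 lower (5.87%) at that p. Within the first arm of the loop alone, 0 were called (0%), with 348 higher (3.86%) and 324 lower (3.59%). Generalised least squares, which weights levels by the covariance the loop gives them, called 0, with 511 higher and 349 lower. A fit of all 16 follicles with the middle 6 as a group of their own called 8 genes (0.0886%), beside 591 higher (6.55%) and 425 lower (4.71%) at an unadjusted p under 0.05. All 8 were higher in the matrix-rich follicles: PRKAR1B, PDLIM1, FKBP7, SERINC5, TFPI2, AGRN, RBP4 and COL11A1. Leaving out 1 follicle level at a time called 20 genes without J980, 15 without 46, 7 without 27, 2 without C12, 1 without 861 and 0 without each of the other 5. PRKAR1B, PTN, RTRAF, SERINC5, UQCRH, PI16, SLA2 and TRAPPC5 were among the 20. Leaving out 1 array called 0 to 9. Of 63 named genes with an unadjusted p under 0.05, 21 had a difference that moved by more than 1.5 times when 1 array was left out, and for 15 of them only the 2 joining arrays did so. The values are given beside those genes. In what follows no difference passed the adjusted threshold in the main comparison, and the values are given for their size. Beside single genes, passing in another fit is stated only for the fit with the middle group. A regression on the ranking score over 16 follicles called more genes than that fit. Among them were MORN2, PTN, COL3A1, ECM2, COL6A2, IGFBP6 and UQCRFS1.

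Collagens other than the ranking genes were often on the higher side in the matrix-rich follicles. Of 19 tested, 9 had an unadjusted p under 0.05 in that direction and 0 in the other, against 6.22% and 4.12% of all genes, and 7 separated the groups fully, against 1.5%. The same 6.22% on the higher side and 4.12% on the lower are the background for each list that follows, where a count refers to an unadjusted p under 0.05. The 9 were COL2A1, COL3A1, COL4A1, COL4A6, COL6A2, COL11A1, COL16A1, COL17A1 and COL27A1. The median difference over the 19 was 0.17, against -0.00 over all genes. It was 0.19 within the first arm of the loop and 0.20 within the second, but 0.09 with the arm as a block. The 8 of 19 below 0 lay between -0.17 and -0.03, with COL4A2 lowest. Leaving out the joining array labelled C10 replicate 1 brought the 9 to 4, beside 3.23% of all genes higher and 1.74% lower in that fit.

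COL3A1 encodes type III collagen, the partner of type I in soft stroma. It had levels of 0.34 in C10, 0.24 in C26, 0.00 in 46, 0.12 in 27 and 0.25 in 26, and of -0.08 in C12, -0.28 in 861, -0.20 in C13, -0.20 in J980 and -0.36 in H893. The groups did not overlap, and the difference was 0.42 ± 0.08 (SE, adjusted p = 0.129, limma), with 0.40 within each arm of the loop. The size depended on the features: those with values on at least 20 arrays differed by 0.15, 0.28 and 0.34, each less than the gene's value. Among the alternative fits the difference of COL3A1 was as low as 0.13. COL6A2, the other chain of the common type VI collagen, differed by 0.29 ± 0.07 and had no overlap either, with its lowest matrix-rich level in 46. COL11A1, which encodes a chain found inside fibrils, had 0.28, 0.30, -0.08, 0.40 and 0.29 in C10, C26, 46, 27 and 26 against -0.23, -0.16, -0.27, -0.51 and -0.25 in C12, 861, C13, J980 and H893. Its difference was 0.52 ± 0.10 (adjusted p = 0.129, limma; 0.0483 in the fit with the middle group), with 0.32 and 0.84 within the arms. Follicle 46 was the matrix-rich follicle nearest to the matrix-poor ones for all 3 of these genes.

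The 2 main chains of basement membrane collagen did not go together. COL4A1 was higher by 0.23 ± 0.06 with no overlap, while COL4A2 was lower by 0.17 on the log2 scale with SE 0.10 (adjusted p = 0.603, limma) and overlapped. The 3 features of COL4A1 had a median correlation of 0.04, so its level is uncertain. Of 18 basement membrane genes, 4 had an unadjusted p under 0.05 on the higher side, COL4A1, COL4A6, LAMB2 and AGRN, and LAMA5 had one on the lower side, at -0.34. Their median was 0.01, with 0.03 and 0.02 within the arms. AGRN, which encodes the heparan sulfate proteoglycan agrin, was even within groups: 0.15, 0.15, 0.20, 0.27 and 0.16 in C10, C26, 46, 27 and 26 and -0.07, -0.30, -0.27, -0.16 and -0.09 in C12, 861, C13, J980 and H893. It differed by 0.36 ± 0.06 (adjusted p = 0.115, limma; 0.0318 in the fit with the middle group), with 0.36 and 0.35 within the arms. Without the array labelled 861 replicate 1 the difference of AGRN was 0.23.

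Matrix glycoproteins were mostly on the higher side too. Of 38, 16 had an unadjusted p under 0.05 and were higher in the matrix-rich follicles (42.1%, against 6.22% of all genes), 0 were lower (against 4.12%), and 32 of 38 differences were above 0. The 16 were FN1, EFEMP2, ELN, MGP, SPARC, SPARCL1, TNC, THBS2, CCN2, LTBP2, ECM2, SMOC2, SVEP1, AEBP1, DPT and SRPX2. The median was 0.18, and it was 0.20 and 0.16 within the arms, with 35 of 38 above 0 in the first arm and 26 in the second. Without 1 of the 2 joining arrays it was 0.09 (C26 replicate 1) or 0.24 (C10 replicate 1). The mean level over the 38 genes was 0.05 to 0.13 in the matrix-rich follicles and -0.14 to -0.03 in the matrix-poor ones, with no overlap.

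THBS2, a matricellular thrombospondin, had -0.02, 0.56, 0.44, -0.16 and 0.48 in C10, C26, 46, 27 and 26 and -0.17, -0.48, -0.45, -0.39 and -0.26 in C12, 861, C13, J980 and H893, a difference of 0.61 ± 0.14. The groups met at 27 and C12, so the distance between them rests on C26, 46 and 26. Its relative THBS1 was on the other side, at -0.20 ± 0.09 (adjusted p = 0.498, limma). FN1, fibronectin, differed by 0.37 ± 0.10, MGP, an inhibitor of matrix calcification, by 0.45 ± 0.12, and ECM2 by 0.33 ± 0.07. For MGP, J980 had -0.69 and the other matrix-poor follicles -0.18 to -0.12. TNC, tenascin C, was highest by far in 1 matrix-rich follicle, since C26 had 0.63 and the other 4 were between -0.05 and 0.12. Its difference of 0.31 came to 0.19 without the level of C26, and also to 0.19 without the joining array labelled C26 replicate 1. Within the arms it was 0.23 in the first, which does not hold C26, and 0.45 in the second. SPARC differed by 0.21 ± 0.07, but its 4 features had a median correlation of -0.16.

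Small leucine-rich proteoglycans, the family of the ranking gene DCN, did not form 1 group. FMOD, fibromodulin, had the largest difference, 1.07 ± 0.30 (adjusted p = 0.256, limma), and ASPN, asporin, had 0.45. FMOD had 0.52, 1.15, -0.52, 0.53 and 0.65 in C10, C26, 46, 27 and 26 and -0.41, -0.76, -0.95, 0.14 and -1.05 in C12, 861, C13, J980 and H893. Follicle 46 therefore lay among the matrix-poor follicles and J980 near the matrix-rich ones. LUM, lumican, differed by 0.00 ± 0.12 and OGN, osteoglycin, by 0.06. Of 20 proteoglycans, 5 had an unadjusted p under 0.05, FMOD, ASPN, SDC3, SDC4 and CD44, all higher (25%, against 6.22% of all genes), and the median was 0.05, with 0.13 and 0.00 within the arms. FMOD differed by 0.79 and 0.64 within the arms.

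**Figure D2:**
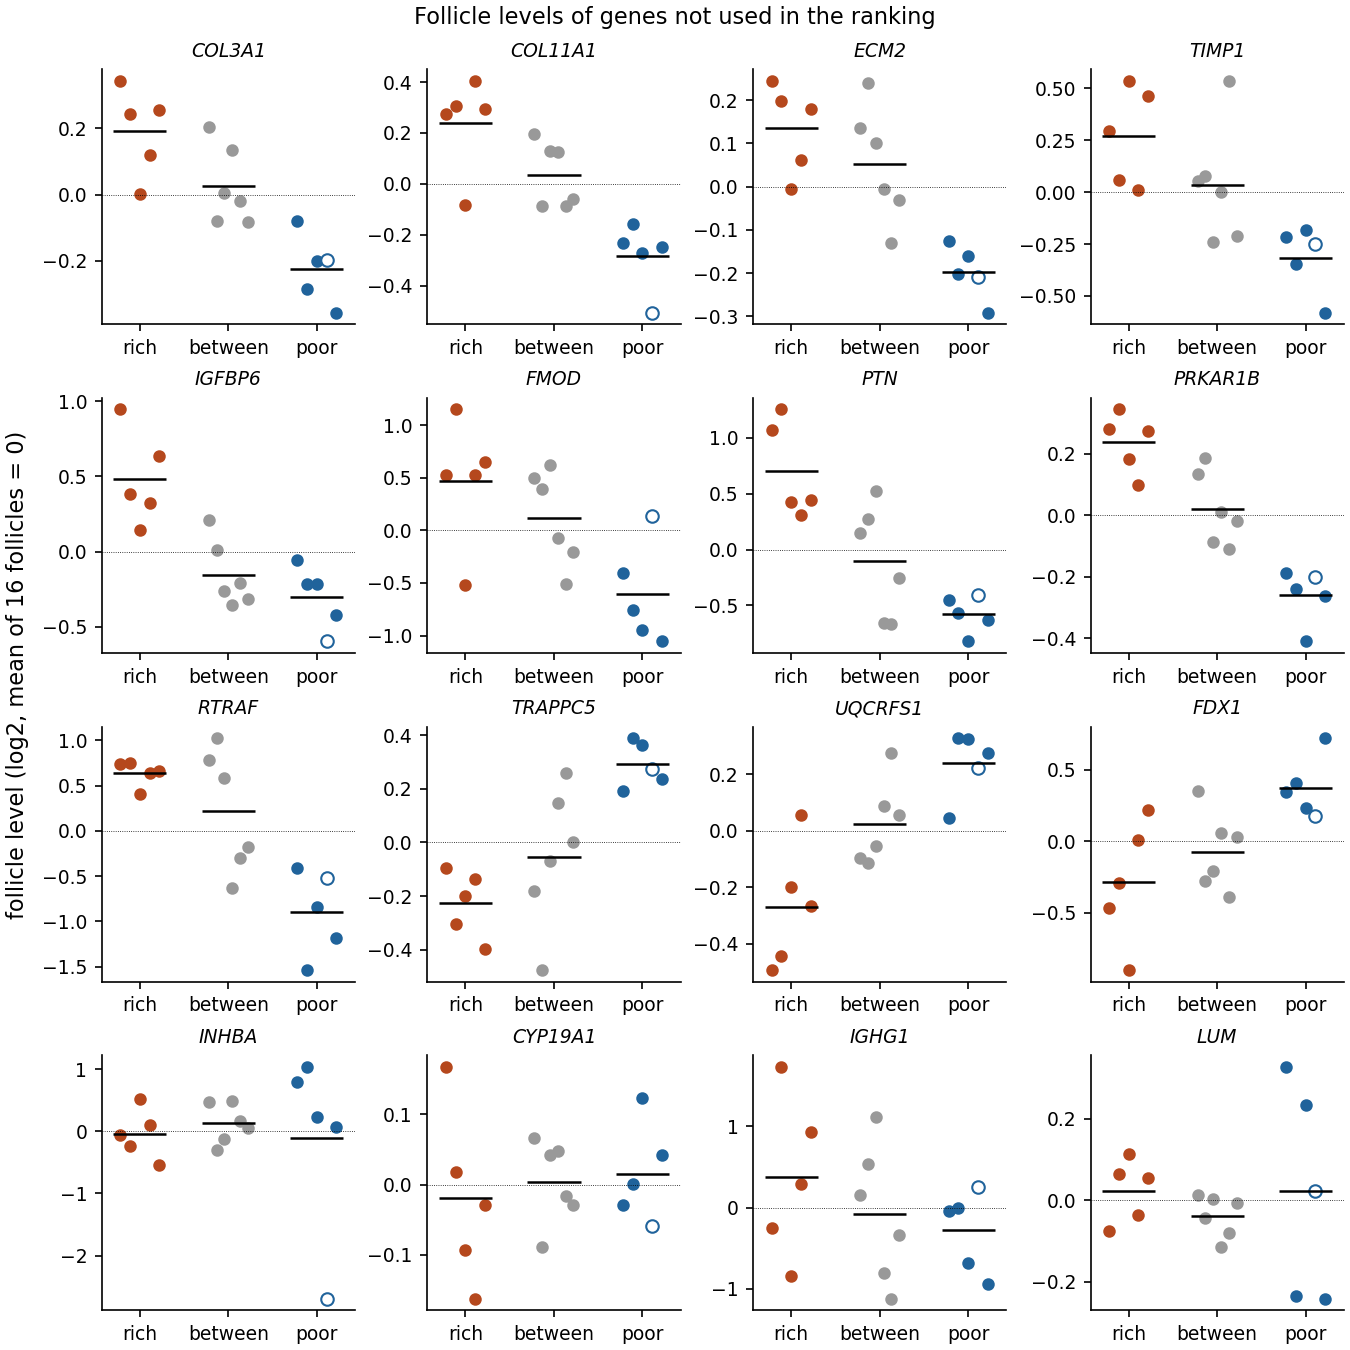
Each panel plots the follicle levels (log2, mean of 16 follicles at 0) of 1 gene that was not used in the ranking, for 5 matrix-rich, 6 between and 5 matrix-poor follicles; black lines are group means and the open circle is J980. COL3A1, PTN, PRKAR1B and RTRAF separate the ends fully, FMOD does not because of 46, and INHBA, CYP19A1 and LUM have group means close to each other.

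Of 27 matrix proteases and inhibitors, 8 had an unadjusted p under 0.05 and were higher in the matrix-rich follicles (29.6%, against 6.22% of all genes) and 0 were lower, with a median of 0.15 (0.14 within each arm). The 8 were TIMP1, SERPING1, A2M, CTSB, CTSK, CTSS, CST3 and HTRA1. TIMP1, an inhibitor of matrix metalloproteinases, had 0.29, 0.06, 0.54, 0.01 and 0.46 in C10, C26, 46, 27 and 26 and -0.22, -0.35, -0.18, -0.25 and -0.58 in C12, 861, C13, J980 and H893, a difference of 0.59 ± 0.12 (adjusted p = 0.134, limma) with 0.75 and 0.42 within the arms. CST3, the cathepsin inhibitor cystatin C, differed by 0.44 ± 0.10. The collagenolytic cathepsin CTSK was among the 8 at 0.52, while the gelatinases MMP2 and MMP9 lay at -0.28 and -0.17 with unadjusted p above 0.05. Of 20 collagen processing enzymes, PLOD1, PLOD3 and LOXL4 were higher and LOXL3 lower at an unadjusted p under 0.05, with a median of 0.09 (0.15 and 0.20 within the arms). PLOD1 and PLOD3 hydroxylate collagen lysines and differed by 0.28 ± 0.09 and 0.14 ± 0.06, and PLOD3 came to 0.07 without the joining array labelled C10 replicate 1 and to 0.28 without the other one.

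Among 23 integrins and other matrix receptors, ITGA4, ITGA7, ITGB3, ITGB5, DDR2 and CD44 were higher at an unadjusted p under 0.05 and 0 were lower (26.1%, against 6.22% of all genes), with a median of 0.07, or 0.03 and -0.02 within the arms. With the arm as a block 4 were higher at that p, against 5.98% of all genes, and the median was 0.00. DDR2, a receptor for fibrillar collagen, had 0.13 to 0.16 in 4 matrix-rich follicles but -0.24 in 46, against -0.47 to -0.07 in the matrix-poor ones. Its difference of 0.38 came to 0.63 without the joining array labelled C26 replicate 1. CD44, the hyaluronan receptor, differed by 0.45 ± 0.12 in the main comparison, by 0.54 within the first arm and by 0.15 within the second. In the TGF-beta and BMP list, whose ligands induce matrix genes, 4 of 25 were higher at an unadjusted p under 0.05 (TGFBR2, FSTL3, ID2 and ID3; 16%), SMAD2 was lower (4%), and the median was 0.03, with 0.05 and 0.06 within the arms. TGFBR2, the type II receptor, differed by 0.30 ± 0.09, and by 0.38 and 0.03 within the arms, and it came to 0.09 without the joining array labelled C26 replicate 1. ID3, a target of BMP signalling, differed by 0.19, and by 0.34 without that array.

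Genes of fibroblasts and mesenchyme had the highest median after the immunoglobulins, 0.22 over 31 genes. An unadjusted p under 0.05 was reached by 13 on the higher side (41.9%, against 6.22% of all genes) and 0 on the lower (against 4.12%): THY1, S100A4, NR2F2, SNAI2, PDPN, DDR2, C7, C1S, C1R, S100A10, ANXA1, PTN and PI16. The mean level of the list was 0.08 to 0.20 in the matrix-rich follicles and -0.22 to -0.10 in 4 matrix-poor ones, with J980 at 0.05. Without J980 and its arrays 15 were on the higher side at that p and 0 on the lower, against 5.36% and 5.87% of all genes in that fit, and the median was 0.23. Within the second arm, where J980 is the only matrix-poor follicle, the median was 0.05 against 0.26 in the first.

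PTN, the heparin-binding growth factor pleiotrophin, was the clearest of them. It had 1.07 in C10, 1.25 in C26, 0.43 in 46, 0.31 in 27 and 0.45 in 26, and -0.45 in C12, -0.56 in 861, -0.82 in C13, -0.41 in J980 and -0.63 in H893. C10 and C26 stood above the other 3 matrix-rich follicles, as they do in the ranking score. The difference was 1.28 ± 0.18 (adjusted p = 0.0595, limma), with 1.36 and 1.08 within the arms. Its 2 features had a correlation of 0.98. PI16 differed by 1.16 in the main comparison, by 1.45 within the first arm and by 0.04 within the second, where J980 had 0.57. S100A4 differed by 0.69.

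Smooth muscle and pericyte genes had smaller differences. Of 28, 8 were higher at an unadjusted p under 0.05 (ACTA2, TAGLN, MYLK, TPM1, TPM2, PDLIM3, CSRP2 and FHL1; 28.6%, against 6.22% of all genes), 0 were lower, and the median was 0.09, with 0.10 and 0.22 within the arms. Without J980 and its arrays the 8 became 3, against 5.36% of all genes, and within the first arm of the loop 0 of 28 reached that p on the higher side, against 3.86%. The mean level of the list was -0.21 in J980 and 0.10 in C12, both matrix-poor. The groups overlapped only because C12 lay above every matrix-rich follicle. J980 and the other matrix-poor follicles lay below every matrix-rich follicle. MYLK, myosin light chain kinase, differed by 0.30 ± 0.10 and TPM2, a tropomyosin, by 0.24 ± 0.08. Without the joining array labelled C26 replicate 1 they came to 0.10 and 0.37.

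**Figure D3:**
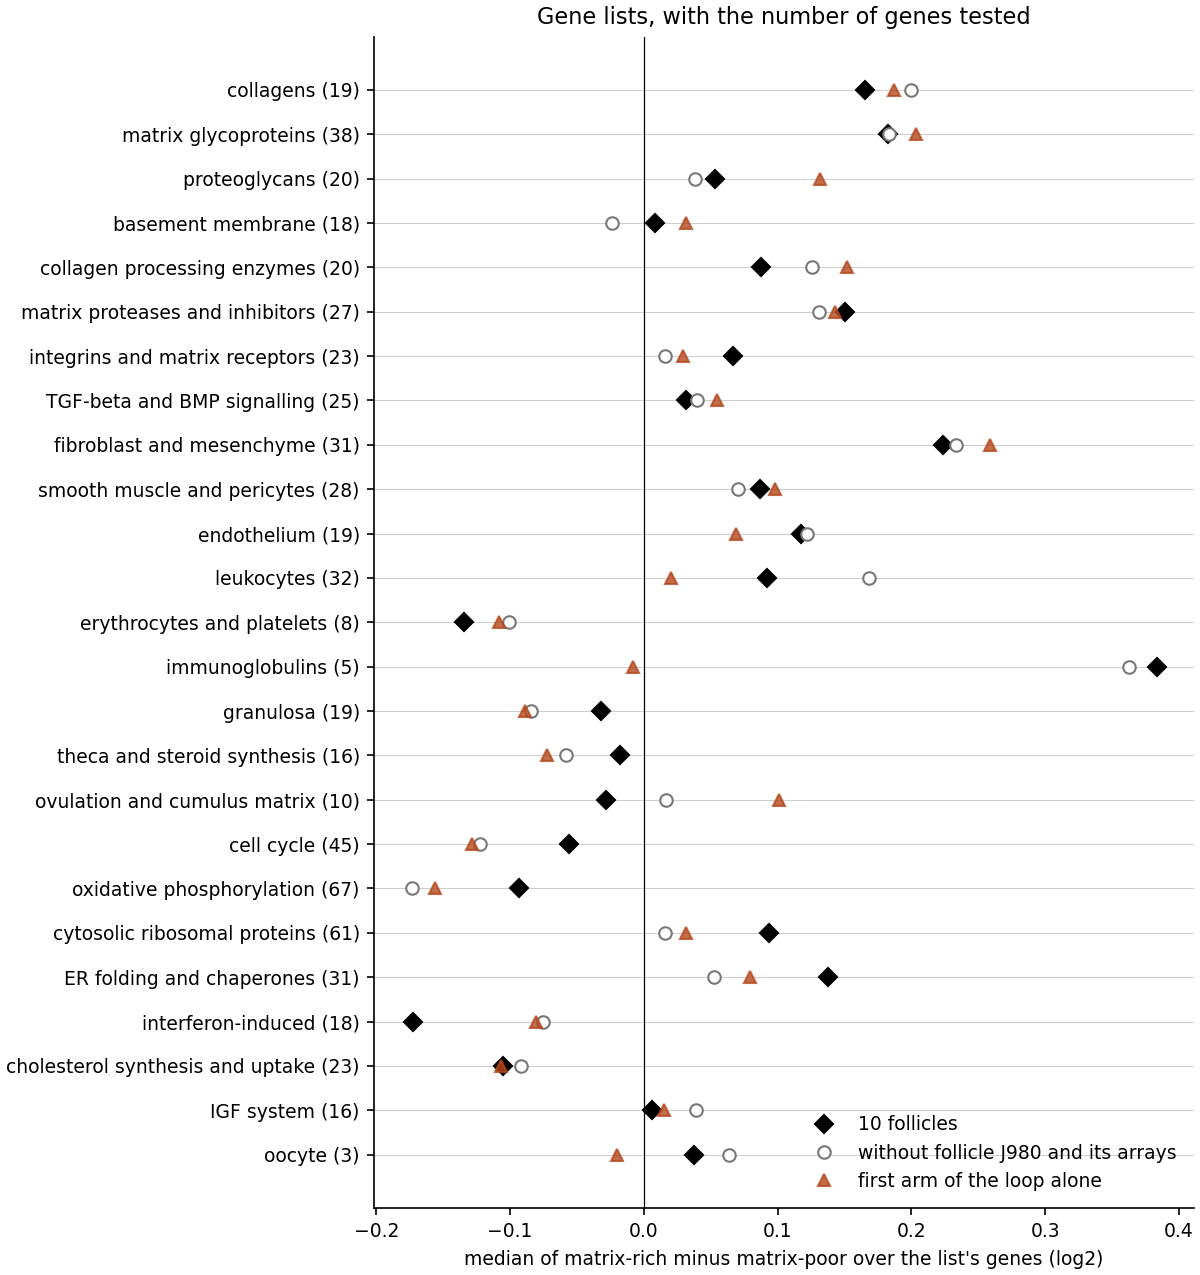
For each of 25 gene lists, with the number of genes tested in parentheses, the median difference between matrix-rich and matrix-poor follicles (log2) is plotted for the 10 follicles (diamonds), without J980 and its arrays (circles) and within the first arm of the loop (triangles). Fibroblast genes, matrix glycoproteins and collagens lie between 0.17 and 0.26 in all 3, immunoglobulins move from 0.38 to -0.01 within the first arm, and oxidative phosphorylation moves from -0.09 to -0.17 without J980.

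By size alone, whatever their p, the 10 largest differences of the 9025 genes were those of TFPI2, RTRAF, ISG15, PTN, MX1, FNTB, PI16, FMOD, IFI6 and PECAM1. These were picked by size after the values were seen. ISG15, MX1 and IFI6 were on the lower side, with unadjusted p above 0.05, and are described with the interferon-induced genes. RTRAF, an RNA-binding protein that acts with the tRNA ligase complex, had 0.73, 0.75, 0.41, 0.64 and 0.66 in C10, C26, 46, 27 and 26 and -0.41, -1.54, -0.84, -0.51 and -1.18 in C12, 861, C13, J980 and H893. The matrix-rich follicles were close together and the matrix-poor ones were spread over more than 1 log2 unit. Its difference was 1.53 ± 0.19 (adjusted p = 0.0595, limma), with 1.565 and 1.196 within the arms, and the follicles between the groups also split, with C35, 33 and C32 at 0.58 to 1.03 and 8, 31 and C22 at -0.63 to -0.17. RTRAF rested on 1 feature, as did PRKAR1B. PRKAR1B, a regulatory subunit of protein kinase A, was smaller but steadier: 0.28, 0.34, 0.18, 0.10 and 0.27 in C10, C26, 46, 27 and 26 and -0.19, -0.24, -0.41, -0.20 and -0.26 in C12, 861, C13, J980 and H893. It differed by 0.50 ± 0.07 (adjusted p = 0.0595, limma), by 0.51 and 0.44 within the arms, and had the smallest adjusted p, 0.0199, in the fit with the middle group, shared with PDLIM1 and FKBP7.

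TFPI2, a protease inhibitor deposited in matrix, had the largest difference of the 8 genes called with the middle group, 1.83 ± 0.35 (adjusted p = 0.129 in the main comparison and 0.0318 with the middle group, limma). Within the arms it was 2.04 and 1.60, and it is named here after its values were seen. The groups overlapped for TFPI2, since the matrix-rich 27 had -0.33 and the matrix-poor C12 had -0.13. Of the 8 genes, TFPI2, PRKAR1B, FKBP7 and COL11A1 each rested on 1 feature. RBP4, which carries retinol, differed by 0.67 ± 0.11, and its 2 features had a correlation of 0.87. PDLIM1, a cytoskeletal adaptor, and SERINC5, a membrane protein, differed by 0.90 ± 0.13 and 0.79 ± 0.12, but their features disagreed: the correlation was 0.25 for PDLIM1 and -0.23 for SERINC5. UQCRH, a complex III subunit, at 0.62 ± 0.10 had features with a correlation of -0.00. FKBP7, a prolyl isomerase of the endoplasmic reticulum, and NPC1, a lysosomal cholesterol transporter, differed by 0.51 ± 0.08 and 0.48 ± 0.09. Without the joining array labelled C26 replicate 1 they came to -0.02 and -0.04, and without the other joining array to 0.77 and 0.73, while values within the arms were 0.46 and 0.65 for FKBP7 and 0.49 and 0.39 for NPC1.

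IGFBP6, which binds IGF2, was the clearest of 16 IGF system genes at 0.79 ± 0.15 (adjusted p = 0.129, limma), with 0.77 and 1.04 within the arms. It had 0.94, 0.38, 0.14, 0.32 and 0.64 in C10, C26, 46, 27 and 26 and -0.06, -0.21, -0.22, -0.60 and -0.42 in C12, 861, C13, J980 and H893, with no overlap. INSR, the insulin receptor, was the other member with an unadjusted p under 0.05, at 0.45 ± 0.15. IGF1 and IGF2 differed by 0.00 and 0.01, and the median of the list was 0.01, with 0.02 and -0.03 within the arms.

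The 8 genes of smallest p on the lower side had differences between -0.57 and -0.28. TRAPPC5, a subunit of a vesicle-tethering complex, had -0.10, -0.30, -0.20, -0.14 and -0.40 in C10, C26, 46, 27 and 26 and 0.19, 0.39, 0.36, 0.27 and 0.24 in C12, 861, C13, J980 and H893. The groups did not overlap, with C10 at -0.10 and C12 at 0.19 nearest to each other. The difference was -0.52 ± 0.07 (adjusted p = 0.0595, limma), with -0.44 and -0.55 within the arms. RSBN1 followed at -0.57 ± 0.10, and at -0.38 without the array labelled 33 replicate 1, and 27 was its lowest follicle at -0.65. ESAM, an adhesion molecule of endothelial junctions, was lower with -0.50 ± 0.10 and no overlap, with H893 highest at 0.50, and it came to -0.79 without the joining array labelled C26 replicate 1. MYDGF, ASGR1, RNF11, RNASEH1 and SLA2 had differences from -0.42 to -0.28, each with all matrix-rich follicles below all matrix-poor ones. Leaving out 1 array took ASGR1 from -0.28 to between -0.41 and -0.09, with the smallest size without 861 replicate 1, and RNASEH1 from -0.31 to -0.57 without C26 replicate 1 and to -0.19 without C10 replicate 1.

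Genes of oxidative phosphorylation were on the lower side, by an amount that depended on J980. Of 67 genes, 11 were lower at an unadjusted p under 0.05 (NDUFB4, NDUFB6, SDHC, UQCRC1, UQCRFS1, UQCRQ, CYC1, COX5B, COX7C, ATP5F1B and ATP5MC1; 16.4%, against 4.12% of all genes) and UQCRH was higher, with a median of -0.09. Without J980 and its arrays 27 were lower and 1 higher at that p, against 5.87% and 5.36% of all genes in that fit, and the median was -0.17. The mean level of the list was -0.19 in J980, the lowest of the 10, and 0.01 to 0.15 in the other matrix-poor follicles, against -0.13 to 0.02 in the matrix-rich ones. Within the first arm of the loop 23 of 67 were lower at that p, against 3.59% of all genes, and the median was -0.16, while within the second arm, where J980 is the comparator, it was 0.10. UQCRFS1, the Rieske protein of complex III, had -0.49, -0.44, -0.20, 0.06 and -0.27 in C10, C26, 46, 27 and 26 and 0.05, 0.33, 0.32, 0.22 and 0.27 in C12, 861, C13, J980 and H893. Its difference was -0.51 ± 0.11 (adjusted p = 0.146, limma), with -0.59 and -0.44 within the arms, and the groups overlapped only at 27 and C12.

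**Figure D4:**
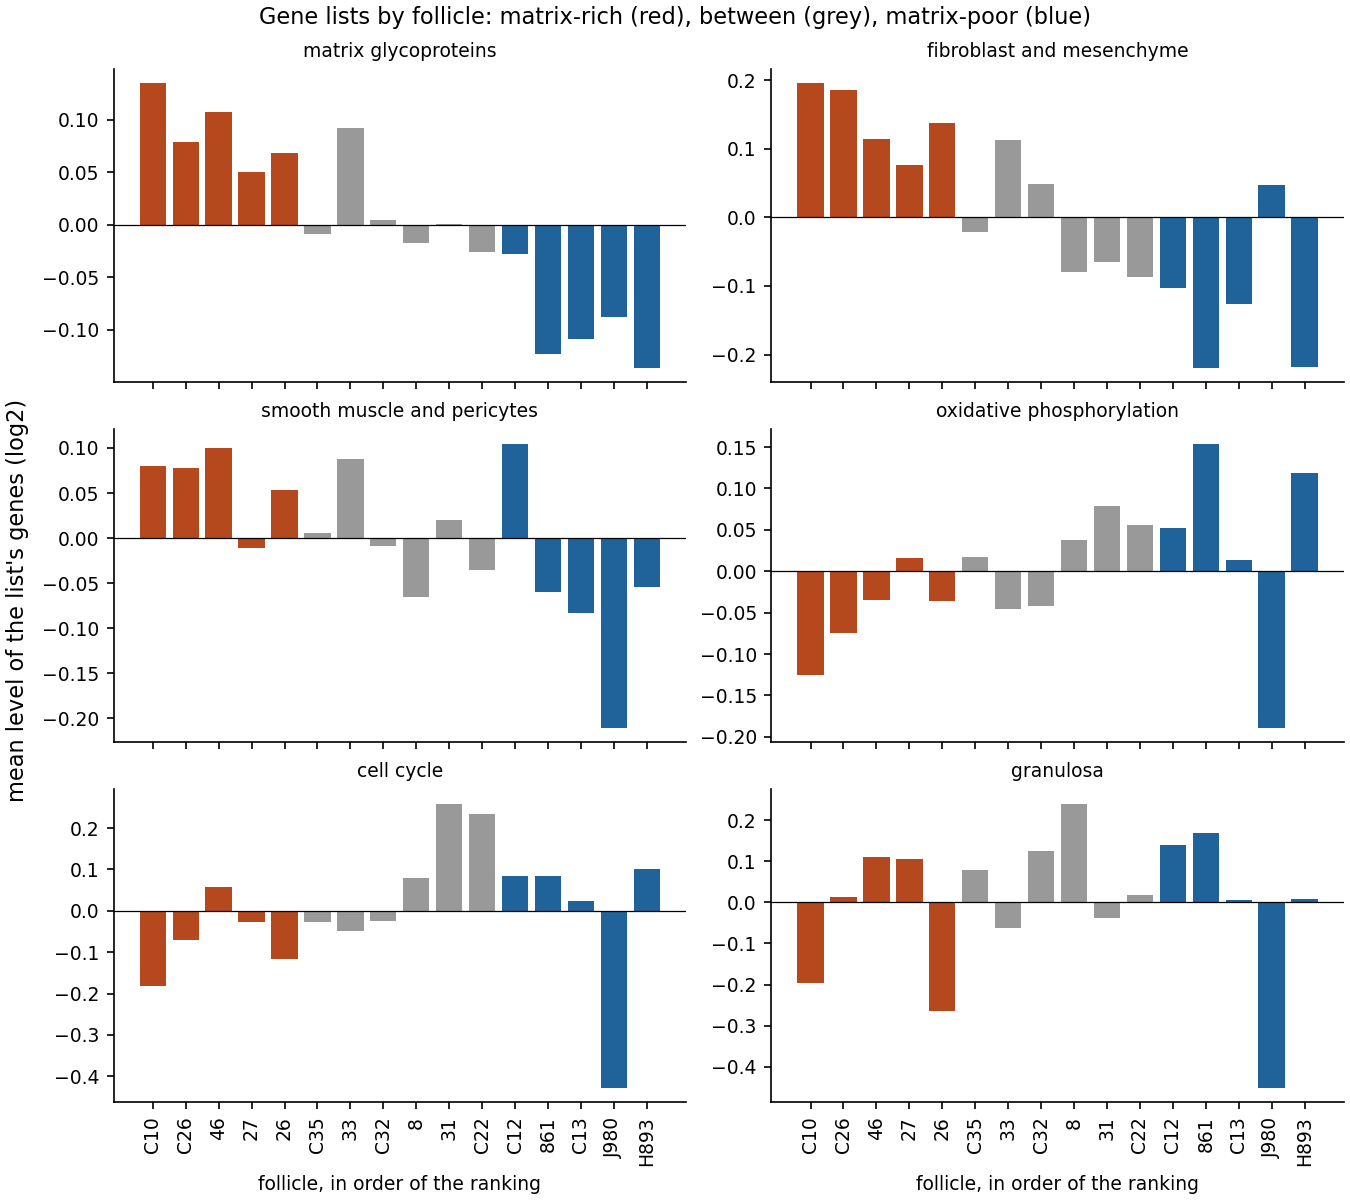
Bars give the mean level (log2) of the genes of 6 lists in each of 16 follicles, in order of the ranking. Matrix glycoproteins fall from the matrix-rich to the matrix-poor end, fibroblast genes do so except in J980, and oxidative phosphorylation, cell cycle and granulosa genes are lowest in J980 at -0.19, -0.43 and -0.45.

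Cell cycle genes also lay on different sides with J980 as comparator and without it. CDK4 alone of 45 had an unadjusted p under 0.05, at 0.16 ± 0.06 and higher, with features that had a median correlation of -0.23. The mean level of the list was -0.43 in J980 and 0.02 to 0.10 in the other matrix-poor follicles, against -0.18 to 0.06 in the matrix-rich ones. Without J980 and its arrays 13 of 45 were lower in the matrix-rich follicles and 1 was higher at that p, against 5.87% and 5.36% of all genes in that fit, and the median went from -0.06 to -0.12. The median was -0.13 within the first arm, with 9 of 45 above 0, and 0.25 within the second, where J980 is the comparator, with 35 of 45 above 0. Within the first arm 1 gene was lower and 1 higher at that p, against 3.59% and 3.86% of all genes. The groups without J980 include C22, which then ranks among the lowest 5.

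Granulosa genes did not separate the ends of the ranking. Of 19, 0 had an unadjusted p under 0.05 and the median was -0.03 (-0.09 and 0.18 within the arms), and the mean level of the list ran from -0.26 to 0.11 in the matrix-rich and from -0.45 to 0.17 in the matrix-poor follicles. In the fit without J980 and its arrays 3 were lower at that p and 0 higher, against 5.87% and 5.36% of all genes. INHBA, the activin and inhibin beta A subunit made by granulosa cells, had -0.06, -0.24, 0.52, 0.10 and -0.55 in C10, C26, 46, 27 and 26 and 0.80, 1.04, 0.24, -2.69 and 0.08 in C12, 861, C13, J980 and H893. J980 was lower than every other follicle by more than 2 log2 units. The difference was 0.06 ± 0.60 with J980 and -0.48 without it and its arrays, with -0.31 within the first arm and 2.46 within the second, and neither passed the threshold. FST, the activin-binding protein follistatin, had the same low value in J980, -2.05, and a difference of -0.06 ± 0.49. INHA was at 0.33 ± 0.25, AMH at -0.19 ± 0.26 and FSHR, the FSH receptor, at -0.11 ± 0.16.

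Of 16 theca and steroid synthesis genes, TSPO was higher and FDX1 lower at an unadjusted p under 0.05 (6.25% each, against 6.22% and 4.12% of all genes), and the median was -0.02, with -0.07 and -0.05 within the arms. CYP19A1, the aromatase, differed by -0.04 ± 0.07, CYP11A1, the side-chain cleavage enzyme, by -0.03 ± 0.32, and HSD3B1 by 0.02 ± 0.18, so the error exceeds the difference in all 3. TSPO differed by 0.46 ± 0.13 with no overlap, by 0.71 and 0.21 within the arms, and by 0.80 or 0.29 without 1 of the joining arrays (C26 replicate 1 or C10 replicate 1). FDX1, the ferredoxin that passes electrons to CYP11A1, had -0.47, -0.29, -0.90, 0.01 and 0.22 in C10, C26, 46, 27 and 26 and 0.35, 0.41, 0.23, 0.17 and 0.72 in C12, 861, C13, J980 and H893. Its difference was -0.66 ± 0.19 (adjusted p = 0.266, limma), -1.11 within the first arm and -0.20 within the second. Its 2 features had a correlation of 0.93.

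Markers of other cell types in the follicle wall were read for the whole lists. PECAM1, an endothelial adhesion protein with the tenth largest difference of all genes, was at 1.03 ± 0.58 (adjusted p = 0.569, limma), with -0.09 and 1.43 within the arms. Endothelial genes had 1 of 19 higher (CD34) and 1 lower (ESAM) at an unadjusted p under 0.05 (5.26% each, against 6.22% and 4.12% of all genes), their median was 0.12, with 0.07 and -0.09 within the arms, and the mean level of the list ran from -0.10 to 0.16 in the matrix-rich and from -0.12 to 0.12 in the matrix-poor follicles. Leukocyte genes had 4 of 32 higher (CD3E, CD2, LAPTM5 and BOLA-DMA; 12.5%, against 6.22%) and 0 lower at that p, a median of 0.09 (0.02 within each arm), and ranges of -0.18 to 0.33 and -0.19 to 0.17. Erythrocyte and platelet genes had 0 of 8 higher and EPB42 lower at that p (12.5%, against 4.12%), with a median of -0.13 (-0.11 and 0.01 within the arms). Leaving out 1 array took CD34 from 0.19 to between 0.08 and 0.43, and EPB42 from -0.19 to between -0.55 and 0.15, with the joining arrays among those that moved each. The part of blood and vessel content in the differences above was not tested.

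Immunoglobulin genes had the largest median difference, 0.38 over 5 genes, and none of the 5 reached an unadjusted p under 0.05. IGHG1, an antibody heavy chain, had -0.25, 1.73, -0.84, 0.29 and 0.93 in C10, C26, 46, 27 and 26 and -0.04, -0.00, -0.68, 0.25 and -0.94 in C12, 861, C13, J980 and H893. Both groups held high and low follicles, and the difference was 0.65 ± 0.43 (adjusted p = 0.642, limma). It was -0.13 within the first arm and 0.74 within the second.

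Of 61 ribosomal proteins, 10 were higher at an unadjusted p under 0.05 (16.4%, against 6.22% of all genes), led by RPL14 at 0.67 ± 0.11 (adjusted p = 0.0832, limma) and RPL37A at 0.41 ± 0.09. RPL14 had 6 features, and those with values on at least 20 arrays differed by 0.01 to 1.35. It came to -0.01 in the fit with 1 feature per gene, which also put C35 and 33 in the matrix-rich group. At an unadjusted p under 0.05, 5 ribosomal proteins were lower, RPS2, RPS15, RPS21, FAU and RPLP2 (8.20%, against 4.12%), and 43 of 61 differences were above 0. Without J980 and its arrays 8 were higher and 0 lower at that p, against 5.36% and 5.87% of all genes, and the median went from 0.09 to 0.02. It was 0.03 and 0.20 within the arms. The list of endoplasmic reticulum folding genes and chaperones also holds cytosolic and mitochondrial chaperones. In it, HSP90B1, PDIA4, DNAJB11 and HYOU1 were higher at an unadjusted p under 0.05 (12.9%), and CCT7, a cytosolic member, was lower (3.23%). The median of the 31 genes tested was 0.14, with 0.08 and 0.17 within the arms. PDIA4 and HSP90B1 differed by 0.84 ± 0.27 and 0.70 ± 0.24, with C26 highest for both at 1.05 and 0.78 and C13 lowest at -1.24 and -1.10. Of 23 cholesterol genes, 2 were higher at that p (NPC1, APOA1; 8.70%, against 6.22%) and 3 lower (FDPS, FDFT1, ACAT2; 13%, against 4.12%). Their median was -0.11, with 6 of 23 above 0, and it was -0.11 and 0.03 within the arms.

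Interferon-induced genes, which cells switch on in defence against viruses, had the largest differences on the lower side and a wide spread within both groups. ISG15, a ubiquitin-like protein, had -0.97, 0.88, -1.41, -1.09 and -1.13 in C10, C26, 46, 27 and 26 and -1.22, 2.09, -0.26, 3.11 and -0.05 in C12, 861, C13, J980 and H893. The difference of -1.48 ± 0.78 (adjusted p = 0.543, limma) rested on high levels in J980 and 861, the groups overlapped, and it was -0.67 without J980 and its arrays. MX1, an antiviral GTPase, had 3.03 in J980, 1.24 in 861 and 1.37 in the matrix-rich C26, and differed by -1.26 ± 0.78 (adjusted p = 0.618, limma). IFI6 had 2.43 in 861 and 1.62 in J980 and differed by -1.05 ± 0.68 (adjusted p = 0.633, limma). Within the first arm these 3 differed by -1.33, -1.04 and -1.12, and within the second by -3.56, -3.49 and -2.06. Of the 18 genes, 5 differences were above 0 and 13 below, and the median was -0.17, with -0.08 and -0.36 within the arms. At an unadjusted p under 0.05, 0 were higher and OAS1X and PSMB9 were lower (11.1%, against 4.12% of all genes), at -0.30 and -0.40, and OAS1X came to -0.17 without the joining array labelled C26 replicate 1.

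Ovulation and cumulus genes had 0 of 10 past an unadjusted p of 0.05 and a median of -0.03, with 0.10 and 0.07 within the arms. CTSL, a lysosomal protease of that list, differed by 0.51 ± 0.27, with J980 at -1.28, and its difference was as low as 0.11 without 1 array. Of 3 oocyte genes ZP3, a zona pellucida protein, was at 0.37 ± 0.15, or 0.07 without the joining array labelled C26 replicate 1, and ZP2 was at -0.07 ± 0.09. The median of the 3 was 0.04, with -0.02 and -0.01 within the arms.

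On 6 arrays a matrix-rich follicle was hybridised together with a matrix-poor one, so their ratio needs no fit across the loop. The pairs were 26 and 27 with J980, 46 with 861, C12 and C13, and C10 with 861, with the matrix-rich follicle in Cy5 on 2 arrays. These arrays entered the levels above and are the same data read directly. Follicles 46, 861 and J980 recur in these pairs, so the 6 ratios are not independent, and C26 and H893 are in none. The ratios carry no dye correction, and the share of all genes with the same sign on all 6 is not given here. PTN was higher in the matrix-rich follicle on all 6, by 0.58 to 1.37, and RTRAF by 0.57 to 2.36. COL3A1 was higher by 0.02 to 0.59 and TIMP1 by 0.24 to 1.15 on all 6. TRAPPC5 was lower on all 6, between -0.86 and -0.32, as was UQCRFS1, between -0.74 and -0.03. FDX1 was lower on 5 of 6, and IGHG1 was higher on only 2 of 6. INHBA ran from -1.02 to 2.77, with both arrays of J980 above 2, and CYP19A1 lay between -0.38 and 0.18.

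**Figure D5:**
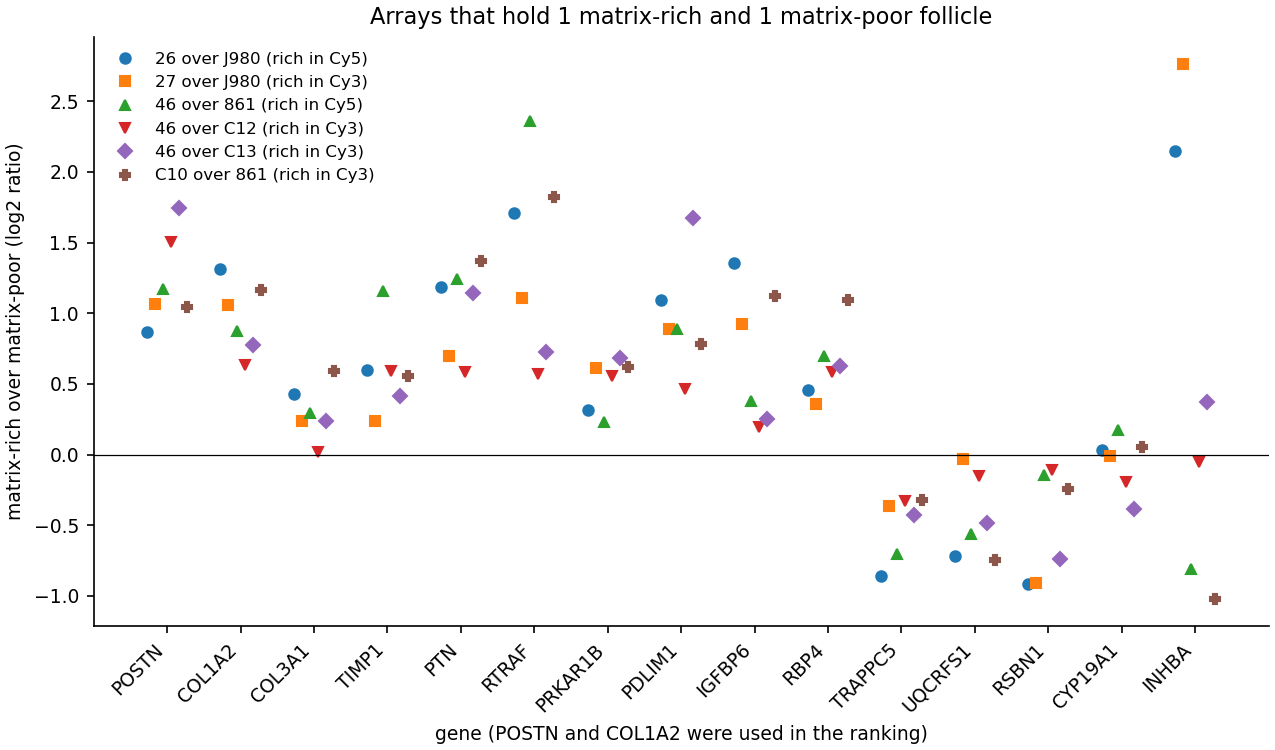
Points give the log2 ratio of the matrix-rich over the matrix-poor follicle on each of the 6 arrays that held 1 of each, for 2 ranking genes and 13 others, with no dye correction. PTN, RTRAF, PRKAR1B, PDLIM1, IGFBP6 and RBP4 are above 0 on all 6, TRAPPC5, UQCRFS1 and RSBN1 are below 0 on all 6, and INHBA is above 2 only on the arrays with J980.

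Over all 16 follicles, the genes whose levels followed the ranking score most closely were MORN2 with a Pearson correlation of 0.94, PRKAR1B with 0.93, SERINC5 with 0.91 and ECM2 with 0.90. On the other side were UQCRFS1 with -0.89, EXOC3L2 with -0.84, PDCL with -0.82 and TOMM22, part of the mitochondrial import channel, with -0.81. Without the joining array labelled C26 replicate 1, the differences of EXOC3L2 and PDCL between the ends came from -0.34 and -0.37 to -0.08 and -0.21. These are descriptions over 16 points that share arrays with the score, and 10 of the points are the follicles compared above. MORN2 differed by 0.51 ± 0.09 between the ends, from 0.04 to 0.47 in the matrix-rich and from -0.41 to -0.13 in the matrix-poor follicles.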

How the data were processed

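Per the labels' protocols, the authors scanned the arrays on an Axon instrument, measured them in GenePix Pro and deposited 1 log ratio per feature and array, taken here as log2 and as Cy5 over Cy3. The largest absolute value, 6.32, is more than the 4.82 that log10 ratios of 16-bit intensities can reach, but natural logs cannot be told apart. The background correction and dye balance are not stated in what was read here. No spot intensities were used, and the small numbers of arrays and of follicles both limit the precision. Of 17418 features, 13605 carried 1 gene symbol in the platform's annotation and were used, 829 carried several and 2984 none. Unused columns of per-sample values numbered 0.

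Arrays were centred on their medians and features averaged per symbol. Genes on at least 20 arrays were fitted with follicle effects (1 for Cy5, -1 for Cy3) and a dye term, leaving 8 residual degrees of freedom, and levels were centred over 16 follicles. The 5 matrix-rich and 5 matrix-poor follicles were compared on their levels with limma 3.58.1 in R 4.3.3, tested on simulated data, with Benjamini-Hochberg adjustment at 0.05. Each heifer gave 1 follicle, which is the replicate. Figures used matplotlib 3.10.9 in Python 3.11.15.

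The follicles, ranking genes and 25 gene lists were chosen with earlier results of these data known. Named genes are the 8 of smallest p in each direction, the 2 of smallest p per list, fixed matrix and follicle genes, and the 4 closest to the score in each direction; other list members are named where their unadjusted p was under 0.05 or, after their values were seen, beside such a member. Alternatives changed the scaling, the dye term, the features, the error model, the ranking and the follicles or arrays included; the fits by arm of the loop and 1 without J980 were added after seeing the data.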

Additional observations from a re-analysis of the deposited data

Results flagged for a closer look

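Within the groups of 5 follicles, 1 follicle stood far from the other 4 in 17 of 230 groups of a named gene or list, by a gap of more than 0.71 of the group's range, where chance gives about 1 in 20. These results are given as values.

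J980 accounted for 7 of the 17. Its INHBA level was -2.69, against 0.08 in the nearest matrix-poor follicle, MGP was -0.69 against -0.18, ANXA1 was -0.48 against -0.19, and SLA2 was -0.042 against 0.27. The mean level of its granulosa genes was -0.45 against 0.01, that of its cell cycle genes -0.43 against 0.02, and that of its endothelial genes 0.12 against -0.09. J980 was thus low for granulosa and cell cycle genes and high for endothelial genes among the matrix-poor follicles.

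Follicle 46 accounted for 4, and in 3 of them it was the low follicle of the matrix-rich group: COL11A1 at -0.081 against 0.28 in the nearest, the collagen receptor DDR2 at -0.24 against 0.13, and the prostaglandin synthase PTGES at -0.12 against 0.10. Its AMH level was the high one, at 0.92 against -0.28.

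Other matrix-rich follicles that stood apart were 27 for RNASEH1 at -0.33 against -0.16, C10 for RPL37A at 0.41 against 0.23, 26 for the immunoproteasome subunit PSMB9 at 0.28 against -0.13, and C26 for TNC at 0.63 against 0.12. Among the matrix-poor follicles, H893 had TSPO at -0.57 against -0.21, and 861 had FSHR at -0.48 against 0.09.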

How the results depend on the processing

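The count of 0 called genes was also found with values as deposited, scaled arrays, no minimum of arrays, no dye term, variances not moderated, generalised least squares, 4 follicles at each end, both shorter rankings, the arm as a block, the first arm alone and without J980 and its arrays. It was 8 with the middle group or on genes with values on all 24 arrays, 10 with 6 follicles at each end, 53 in a regression on the score, 65 with 1 feature per gene, which also changed 2 of the 5 matrix-rich follicles, and 285 when only array error was used, which leaves out the spread between animals. A limit is the loop: levels in its 2 arms are tied by 2 arrays, and leaving out 1 of them leaves 1. Each follicle came from another heifer, and the groups were compared without pairing. Only 6 arrays held 1 follicle of each group, and they share follicles. Replicate numbers were given in accession order and define no pairs. Causes of the changes below were not tested.

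Counts at an unadjusted p under 0.05 on the lower side (372) came to 635 with array error alone, 572 with arrays scaled to one spread and 700 with 1 feature per gene, and on the higher side (561) to 348 within the first arm of the loop. Genes with all matrix-rich follicles above all matrix-poor ones (135) numbered 230 with 1 feature per gene, 281 with 4 and 59 with 6 follicles at each end, and 71 without J980 and its arrays, with or without the middle group. Those below (66) numbered 109 after scaling, 164 with 1 feature per gene, 164 with 4 and 19 with 6 follicles at each end, and 101 without J980.

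Of list medians, collagens (0.17) came to 0.078 with generalised least squares, 0.086 with the arm as a block, 0.23 on all 24 arrays, 0.20 with no dye term and 0.20 in the regression. Integrins and receptors (0.07) came to 0.00017 and 0.0027 with the first 2 of these, 0.020 after scaling and 0.016 without J980. Endothelium (0.12) came to 0.055 on all 24 arrays, 0.081 with no dye term, 0.075 with 1 feature per gene, 0.075 with 6 follicles at each end and 0.069 in the first arm. Theca and steroid genes (-0.02) came to 0.032 with 1 feature per gene, 0.033 with 4 follicles at each end, 0.036 with the block and -0.072 in the first arm. With 1 feature per gene, proteoglycans came to -0.0091, basement membrane to -0.054 and cholesterol genes to -0.0032. Matrix glycoproteins came to 0.13 when the 3 collagens alone ranked the follicles, oocyte genes to -0.079 with generalised least squares, and the IGF system to 0.054 after scaling. Ribosomal proteins came to 0.015 without J980 and 0.032 in the first arm, where proteoglycans came to 0.13 and ovulation genes to 0.10.

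Some differences turned sign. CYP11A1 came to 0.084 with generalised least squares, 0.11 with 4 follicles at each end, 0.0054 in the regression and 0.21 with the block. INHBA came to -0.45 after scaling, -0.48 without J980 and -0.31 in the first arm, and HSD3B1 to -0.13, -0.16 and -0.33. LUM came to -0.011 with no dye term, -0.037 with 1 feature per gene, -0.00041 with the block and -0.0029 in the first arm. FST came to 0.067 with 1 feature per gene, 0.15 with 4 follicles at each end and 0.38 with the block. With 1 feature per gene ANXA1 came to -0.12, GATA1 to 0.038, RPL14 to -0.0070 and FDFT1 to 0.17. That setting also put C35 and 33 in the matrix-rich group in place of 46 and 26. Feature choice and follicle choice therefore change together in it. On the main groups the features of FDFT1 differed by -0.10, -0.09 and -0.87, and those of ANXA1 by -0.11, 0.70 and 0.32. When collagens ranked the follicles FSHR came to 0.026 and CYP19A1 to 0.041, and CYP19A1 came to 0.0028 with the block and 0.0032 in the first arm. There IGHM came to -0.0083, IGHG1 to -0.13, INHA to -0.025 and AMH to 0.15.

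Leaving out 1 follicle level or 1 array at a time gave 0 to 20 called genes, 20 without J980, 286 to 836 genes higher and 154 to 759 lower at an unadjusted p under 0.05, 58 to 307 genes fully above and 31 to 266 fully below. Medians ranged from 0.12 to 0.23 for collagens, 0.088 to 0.24 for matrix glycoproteins, 0.033 to 0.10 for proteoglycans, -0.040 to 0.083 for basement membrane, 0.060 to 0.22 for collagen processing, 0.11 to 0.21 for proteases, 0.019 to 0.084 for integrins and 0.036 to 0.18 for endothelium. They ranged from -0.15 to -0.050 for erythrocytes, -0.067 to 0.029 for theca genes, -0.052 to 0.11 for ovulation genes, -0.36 to -0.057 for interferon genes, -0.12 to -0.063 for cholesterol genes, -0.037 to 0.071 for the IGF system and -0.13 to 0.14 for oocyte genes. Differences that crossed 0 were FST (-0.56 to 0.23), LUM (-0.14 to 0.28), CYP11A1 (-0.30 to 0.22), INHBA (-0.58 to 0.38), CYP19A1 (-0.19 to 0.041), HSD3B1 (-0.12 to 0.13), FSHR (-0.24 to 1.9e-05), FKBP7 (-0.015 to 0.77), EPB42 (-0.55 to 0.15) and NPC1 (-0.042 to 0.73).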
